A study of Mus musculus with 4 samples.

Results

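G2/M and mitosis genes encode the cyclins, kinases, checkpoint proteins, motors and ubiquitin ligase partners that carry a cell from the end of DNA replication through chromosome segregation and cytokinesis. A list of 40 such genes was followed in mouse ST2 cells exposed to low-intensity pulsed ultrasound (LIPUS). The members were chosen by gene symbol, and 39 of the 40 had a probe set annotated to that symbol alone, out of 18193 such genes in all. Ccnb1, which encodes the main mitotic cyclin, had no probe set with 1 symbol and is given no value. The 39 genes were covered by 89 probe sets, of which 75 lay above the floor on all arrays. That floor was set at log2 5.23, the median of all values, and marks signals too dim to rank. For each gene the brightest probe set was used, and each of the 39 lay above the floor on every array.

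ST2 is an established fibroblast-like stromal line from bone marrow of the BALB/c strain. It was grown here with 10% serum under 5% CO2 at 37 °C, and all 4 groups share this background. The control received no LIPUS by its label. LIPUS was given for 20 min at 25 mW per square cm on the remaining 3 arrays, and those cultures then stood at 37 °C for 0.5, 1 or 3 h. Each group was a single array, the labels do not say whether the control was sham-handled or when it was harvested, and no spread between cultures could be measured. Of 10 stromal markers, 8 lay above the floor, among them Col1a1, Pdgfrb and Cxcl12, whereas Thy1 lay under it on all arrays and Ly6a had no probe set with 1 symbol. Of other cell types' markers with a probe set, 4 of 5 haematopoietic, 3 of 4 endothelial, 1 of 2 fat cell, 2 of 3 osteoblast and 2 of 4 cartilage markers stayed below the floor throughout, including Ptprc, Pecam1, Adipoq, Ibsp and Acan. The others exceeded it on each array: Cd3e at 6.06 to 6.28, Kdr at 5.51 to 5.83, Sp7 at 5.43 to 5.51, Col2a1 at 5.52 to 5.70 and Sox9 at 5.92 to 6.17, all near the floor, and Fabp4 at 9.98 to 10.32.

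The mitotic programme is driven by cyclin-dependent kinase 1, which is switched on by its cyclins and switched off when the anaphase-promoting complex (APC/C) has them degraded. Many of its genes are silent in resting cells and transcribed late in the cycle. Their promoters often hold a cell cycle genes homology region (CHR), a short element bound by the DREAM complex in quiescence and by B-MYB and FOXM1 complexes later, together with CCAAT boxes bound by NF-Y. In a dividing culture such transcripts come mostly from the share of cells in G2 and mitosis. In RNA from a whole culture, fewer cells in G2/M and less of these transcripts per cell cannot be told apart.

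Promoters are shown for the 4 members with the lowest ratios at 1 h, Ccnf, Nek2, Plk1 and Bub1b, and for the 2 with the highest ratios at 0.5 h, Ccnb2 and Cenpa, so that genes with different courses can be compared. Each sequence comes from RefSeq on build GRCm38.p6 and runs 5′ to 3′ on the gene's strand, from 250 bases before the annotated start to 50 bases after it. Capitals mark the CHR words TTTGAA and TTCGAA and the CCAAT box, on either strand. The positions are chr17:24251360-24251659, minus strand for Ccnf, chr1:191821223-191821522, plus strand for Nek2, and chr7:122159185-122159484, plus strand for Plk1. They are chr2:118597961-118598260, plus strand for Bub1b, chr9:70421505-70421804, minus strand for Ccnb2, and chr5:30666636-30666935, plus strand for Cenpa.
Ccnf: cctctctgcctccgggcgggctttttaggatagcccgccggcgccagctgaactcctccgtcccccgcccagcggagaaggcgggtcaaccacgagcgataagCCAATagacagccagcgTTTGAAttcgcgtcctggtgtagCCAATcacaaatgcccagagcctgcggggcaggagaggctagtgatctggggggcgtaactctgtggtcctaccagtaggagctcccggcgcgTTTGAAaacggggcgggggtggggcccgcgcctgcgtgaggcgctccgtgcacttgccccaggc
Nek2: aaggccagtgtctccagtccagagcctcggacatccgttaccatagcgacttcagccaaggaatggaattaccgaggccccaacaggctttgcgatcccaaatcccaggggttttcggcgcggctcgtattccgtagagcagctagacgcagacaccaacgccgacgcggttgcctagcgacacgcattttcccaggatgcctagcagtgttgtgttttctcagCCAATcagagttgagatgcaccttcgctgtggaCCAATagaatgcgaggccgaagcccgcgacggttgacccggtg
Plk1: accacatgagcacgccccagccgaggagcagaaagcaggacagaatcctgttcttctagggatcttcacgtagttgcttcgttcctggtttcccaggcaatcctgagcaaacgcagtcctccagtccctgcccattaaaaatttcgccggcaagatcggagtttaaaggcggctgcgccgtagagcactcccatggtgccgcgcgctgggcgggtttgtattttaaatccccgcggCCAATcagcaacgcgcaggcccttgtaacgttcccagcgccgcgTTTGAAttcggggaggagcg
Bub1b: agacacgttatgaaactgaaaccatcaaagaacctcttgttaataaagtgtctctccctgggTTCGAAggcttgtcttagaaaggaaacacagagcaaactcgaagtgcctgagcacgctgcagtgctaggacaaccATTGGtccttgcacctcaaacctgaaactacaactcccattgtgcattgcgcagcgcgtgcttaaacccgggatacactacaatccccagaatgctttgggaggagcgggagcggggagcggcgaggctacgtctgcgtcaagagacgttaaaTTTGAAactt
Ccnb2: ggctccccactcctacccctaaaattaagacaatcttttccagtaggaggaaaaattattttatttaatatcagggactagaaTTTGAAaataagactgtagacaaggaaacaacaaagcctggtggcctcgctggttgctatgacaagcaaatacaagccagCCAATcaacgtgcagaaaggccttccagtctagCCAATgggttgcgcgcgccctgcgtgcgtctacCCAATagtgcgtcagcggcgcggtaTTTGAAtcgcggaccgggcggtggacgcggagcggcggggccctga
Cenpa: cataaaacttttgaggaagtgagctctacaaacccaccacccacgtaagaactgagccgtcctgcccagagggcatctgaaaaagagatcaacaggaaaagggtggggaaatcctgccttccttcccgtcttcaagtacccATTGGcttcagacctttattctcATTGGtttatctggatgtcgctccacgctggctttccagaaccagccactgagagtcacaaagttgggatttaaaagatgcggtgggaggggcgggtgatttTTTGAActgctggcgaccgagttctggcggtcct

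Ccnb2, whose ratio was highest at 0.5 h, had CHR words at 167 bases before and at base 5 after the start, with CCAAT boxes at 87, 54 and 21 bases before it. Ccnf, whose ratio was lowest at 1 h, also had 2 CHR words, at 130 and 14 bases before the start, and 2 CCAAT boxes. Plk1 had a CCAAT box 14 bases before the start and a CHR word at base 31 after it. Nek2 had no CHR word in this window but 2 CCAAT boxes. Both kinds of word were thus found in all of the shown promoters but that of Nek2. A match is a description of the letters, not a site.

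RefSeq promoters were matched for 35 of the 40 genes, and not for Ccna2, Cdc25c, Aurkb, Tpx2 and Kif20a. A CHR word was found in 26 of 35 (74.3%), against 19.4% of all 27025 promoters of the same length. A CCAAT box was found in 28 of 35 (80%), against 37.9% of all promoters. Both were found in 23 of 35 (65.7%), against 7.7%. A CHR word that began within 30 bases of the start, a window chosen after the positions were seen, was held by 19 of 35 (54.3%) and by 3.35% of all promoters. The E2F words TTTCCCGC and TTTGGCGC, searched on both strands, were found in 0 of 35 and in 1.63% of all promoters. Among 46 G1/S and DNA replication genes, E2F words were found in 28.3%, CCAAT boxes in 58.7% and CHR words in 19.6%.

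**Figure D1:**
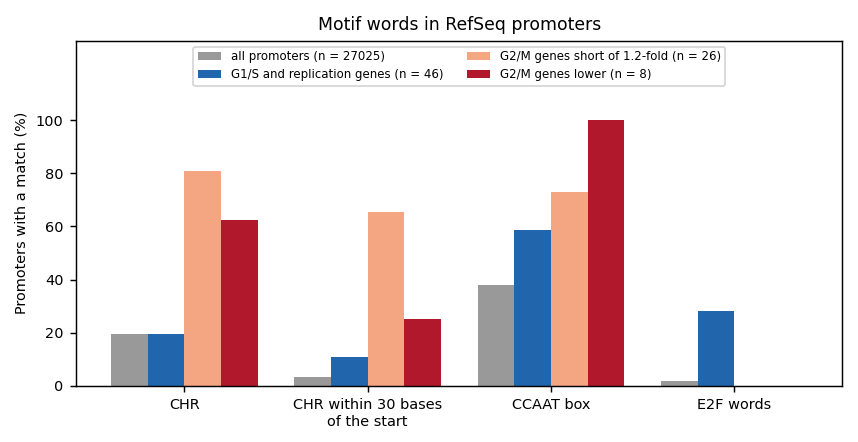
Bars give the percent of RefSeq promoters (250 bases before to 50 after the start) with at least 1 match to each motif, for all promoters, G1/S genes, and the G2/M genes short of or past a 1.2-fold fall; Ccnb1, which was not measured, is left out of both. CHR words were found in 5 of 8 promoters of genes that fell and in 21 of 26 promoters of genes that did not pass the rule.

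The difference from the control was small, and by the brightest probe sets more members passed the size rule at 1 h and 3 h than at 0.5 h. Values are log2 signals, and a ratio is the log2 signal of a LIPUS array minus that of the control array. No test could be made on single arrays. A gene is said to have fallen or risen when its ratio was at least 1.2-fold (0.26 on the log2 scale). As a measure of technical spread, the ratios of the 2 brightest probe sets of a gene were compared. The SD of their difference, divided by the square root of 2, was 0.106, 0.157 and 0.136 at 0.5, 1 and 3 h, over 5004 genes. It stands for the error of 1 probe set's ratio, and the difference between 2 probe sets spreads more widely. At 0.5 h 2 of 39 members fell, at 1 h 9 of 39 and at 3 h 9 of 39, and 0 rose at any time. With the mean of the other 3 arrays in place of the control as reference, the counts were 1, 6 and 1. The 3 h median was then −0.10 with 31 of 39 below 0, and that reference includes the 1 h array. Against the control, 2.5%, 7.5% and 5.37% of all genes measured fell by the same rule, and 2.61%, 9.19% and 5.84% rose. This split moved with scaling at 1 h: with median centring 12.2% of all genes fell and 5.2% rose, with 11 members lower, and with quantile normalization 9.06% fell and 6.69% rose, with 10 members lower. With median centring at 0.5 h, 3.12% fell and 2.18% rose. The members all had fairly bright signals, and with the floor at the 75th percentile, which leaves the brighter genes, 1.15%, 4.85% and 4.5% of genes fell and the members' counts were the same.

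The members' median ratio was −0.01 at 0.5 h, −0.10 at 1 h and −0.12 at 3 h, beside 0.01, 0.02 and 0.01 over all genes. Below 0 lay 22, 28 and 34 of the 39 members, which is 56.4%, 71.8% and 87.2%, against 46.9%, 45.1% and 47.5% of all genes. These 3 comparisons share the control array. In all, 11 of 39 members (28.2%) fell at 1 or more times, against 11.1% of all genes, and 28 did not pass the rule at any time. The 9 that fell at 1 h and the 9 at 3 h had 7 in common, which are Plk1, Nek2, Aurkb, Bub1b, Fzr1, Cenpe and Tpx2. Of all genes, 2.77% fell at both of these times. At 1 h, Ccnf, Nek2 and Plk1 were lower by at least 1.5-fold, a size reached by 0.331% of all genes, and no member was 2-fold lower at any time. At 1 h the member just inside the rule was Aurkb at −0.28 and the one just outside was Ccna2 at −0.25. At 3 h they were Kif20a at −0.27 and Ccnf at −0.25.

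**Figure D2:**
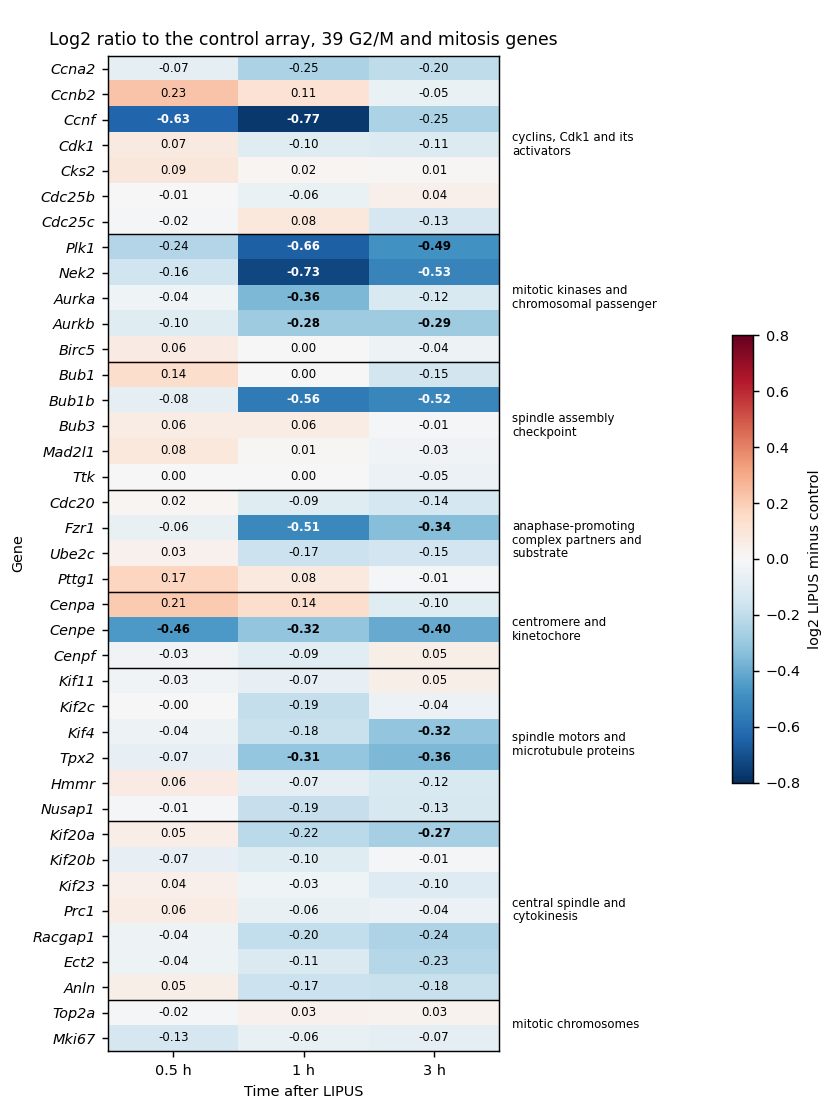
Each row is a gene, grouped by role, and each column a time after LIPUS; colour and number give the log2 ratio to the control array (1 array per group), and bold marks a fall of at least 1.2-fold. Blue deepens from 0.5 h to 1 h, with the lowest ratio, −0.77, for Ccnf at 1 h.

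Among cyclins, Cdk1 and its activators, only Ccnf fell by the deposited values, 1 of 7 measured. Ccnf encodes cyclin F, an F-box protein that selects substrates for a ubiquitin ligase and does not activate a kinase. On the control, 0.5 h, 1 h and 3 h arrays its log2 signals were 9.38, 8.75, 8.61 and 9.13. The level was thus low on the first 2 LIPUS arrays, by 35.6% and 41.3%, and lay nearer to the control on the last, at 16.0% below it. The other probe set of Ccnf gave 7.46, 6.75, 7.01 and 7.32 in the same order, so it was lowest at 0.5 h rather than 1 h.

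The measured genes of cyclins that activate Cdk1, Ccna2 and Ccnb2, did not pass the rule by the deposited values. Ccna2, which encodes the cyclin of S phase and G2, had signals of 11.58, 11.51, 11.33 and 11.38 on the control, 0.5 h, 1 h and 3 h arrays, 16.2% below the control at 1 h. Its other probe set had a ratio of −0.08 at that time. After rescaling, the brighter one passed the rule at 1 h. Its ratio was −0.31 with median centring, −0.28 with quantile normalization and −0.29 with cyclic loess. Ccnb2, a mitotic B-type cyclin gene, gave 10.44, 10.66, 10.55 and 10.38, and was highest at 0.5 h. Cdk1 itself gave 11.89, 11.96, 11.79 and 11.77. Cks2, which encodes a small subunit bound to Cdk1, stayed within 0.1 of the control on all arrays, as did Cdc25b, which encodes a Cdk1-activating phosphatase. Cdc25c, another such phosphatase gene, gave 7.82, 7.81, 7.91 and 7.69.

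In the group of Plk1, Nek2, the Aurora kinases and Birc5, 4 of 5 genes fell at 1 h and 3 of 5 at 3 h, with group medians of −0.36 and −0.29. The kinase genes Cdk1, Bub1 and Ttk, placed in other groups here, did not pass the rule at any time. Plk1, the kinase of mitotic entry and spindle formation, had signals of 10.49, 10.25, 9.83 and 10.00 in the same order of arrays. It was lower by 15.1%, 36.5% and 28.7%, so that most of the difference appeared between 0.5 h and 1 h. Plk1 had 1 probe set, so its ratio has no check from another. Nek2, a kinase of centrosome separation, gave 10.21, 10.05, 9.48 and 9.67. Its level was lower by 10.5%, 39.6% and 30.9%, and the next of its probe sets gave 8.10, 7.77, 7.37 and 7.54, with nearly the same ratios at 1 h and 3 h. A further Nek2 probe set, nearer the floor, had ratios of −0.14, −0.01 and −0.23, short of the rule at all times.

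The Aurora kinases showed smaller falls. Aurka, which acts at spindle poles, gave 10.23, 10.19, 9.87 and 10.11, so only the 1 h array was low, by 22.1%. Aurkb, the kinase of the chromosomal passenger complex at centromeres, gave 9.71, 9.61, 9.43 and 9.42, so the 1 h and 3 h arrays were low, with ratios of −0.28 and −0.29. The other probe set of Aurkb had ratios of −0.21 and −0.17, short of the rule. Birc5, which encodes survivin, a partner of Aurkb in that complex, gave 11.36, 11.43, 11.37 and 11.32 and stayed within 0.1 of the control.

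The spindle assembly checkpoint holds back anaphase until all chromosomes are attached. Among its 5 genes only Bub1b fell, at 1 h and at 3 h. Bub1b encodes BubR1, a part of the inhibitor of the APC/C, and gave 9.94, 9.87, 9.38 and 9.42. The last 2 arrays were lower by 32.3% and 30.3%, and the next probe set gave ratios of −0.50 and −0.54. Another of its probe sets, near the floor, had ratios of 0.03 and 0.16. The remaining checkpoint genes had ratios between −0.15 and 0.14 over all times. Bub1, a related kinase gene, gave 10.38, 10.53, 10.39 and 10.24. Ttk, which encodes the kinase Mps1 at the head of the checkpoint, gave 9.33, 9.33, 9.33 and 9.28, and Mad2l1 and Bub3, which encode other parts of the APC/C inhibitor, also stayed within 0.1 of the control. Bub1b was thus low on arrays on which Bub1, Bub3, Mad2l1 and Ttk did not pass the rule by their brightest probe sets. Cdc20, placed in another group here, was at −0.09 at 1 h by its brightest probe set and at −0.34 by the next.

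Of the 4 genes around the APC/C, Fzr1 fell at 1 h and 3 h. Fzr1 encodes Cdh1, the activator of the complex in late mitosis and G1, and gave 9.66, 9.60, 9.15 and 9.32, which is 29.9% and 21.1% below the control at 1 h and 3 h. It had 1 probe set, so its ratio has no check from another. Cdc20, which encodes the activator used at anaphase, gave 11.82, 11.84, 11.73 and 11.69. Ube2c, which encodes a ubiquitin-conjugating enzyme of the complex, gave 11.99, 12.02, 11.81 and 11.83. Pttg1, which encodes securin, the substrate whose loss frees separase, gave 12.35, 12.52, 12.43 and 12.34. None of these 3 passed the rule by the brightest probe set, and Pttg1 was highest at 0.5 h.

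Among the 3 centromere and kinetochore genes, Cenpe fell at all 3 times, the only one of the 39 members to do so by the brightest probe set. Cenpe encodes a kinesin that brings chromosomes to the spindle equator, and gave 10.19, 9.73, 9.87 and 9.79. All 3 LIPUS arrays were thus low, by 27.4%, 19.7% and 24.3%, with the lowest value at 0.5 h. The other Cenpe probe set, with signals of 9.93, 9.85, 9.78 and 9.85, did not pass the rule at any time. Cenpa, which encodes the histone variant of centromeres, gave 10.77, 10.98, 10.91 and 10.67. Cenpf, which encodes a large kinetochore protein, gave 10.78, 10.75, 10.70 and 10.83 by its brightest probe set. The next Cenpf probe set had ratios of −0.36, −0.53 and −0.31, past the rule at all 3 times.

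Of 6 genes of spindle motors and microtubule proteins, 1 fell at 1 h and 2 at 3 h. Tpx2, which encodes a spindle assembly factor that activates Aurora A, gave 10.77, 10.70, 10.46 and 10.41. It was 19.3% below the control at 1 h and 22.1% at 3 h, and its next probe set gave ratios of −0.33 and −0.28. Kif4, a chromokinesin gene, gave 9.47, 9.43, 9.29 and 9.15, and passed the rule at 3 h, at 19.6% below the control. Both were thus lowest on the last array by the brightest probe set. Nusap1, which encodes a spindle protein bound to microtubules near chromosomes, gave 10.87, 10.86, 10.68 and 10.74. Kif2c, which encodes a microtubule depolymerase, gave 9.75, 9.74, 9.56 and 9.70. Kif11, the motor gene for spindle bipolarity, gave 9.86, 9.83, 9.79 and 9.91, all within 0.1 of the control.

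In the central spindle and cytokinesis group all 7 genes had ratios below 0 at 1 h and at 3 h by the brightest probe set, and 1 passed the rule. Kif20a, which encodes a kinesin of the central spindle, gave 10.25, 10.30, 10.03 and 9.98 and was 16.8% below the control at 3 h. Racgap1, which encodes a centralspindlin subunit, gave 10.84, 10.80, 10.64 and 10.60. Ect2, the gene of the exchange factor that activates RhoA at the cleavage furrow, gave 10.16, 10.12, 10.05 and 9.94. These were both lowest on the 3 h array. Anln, which encodes the scaffold anillin, had a ratio of −0.18 at 3 h, while Kif23, the motor of centralspindlin, was at −0.10, Prc1, a microtubule bundler, at −0.04, and Kif20b at −0.01. Prc1 and Kif20b stayed within 0.1 of the control at every time by the brightest probe set. The next Kif20b probe set had ratios of −0.41, −0.44 and −0.37, past the rule at all 3 times. That of Prc1 had −0.02, −0.23 and −0.15, short of it. At 1 h and 3 h the next probe sets of Racgap1, at −0.30 and −0.34, and Kif23, at −0.42 and −0.58, passed the rule. That of Anln, at −0.23 and −0.13, did not.

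The chromosome proteins used as markers of dividing cells did not pass the rule. Top2a, which encodes the topoisomerase that untangles sister chromatids, gave 11.65, 11.63, 11.68 and 11.68. Mki67, which encodes the Ki-67 protein on the surface of mitotic chromosomes, gave 11.90, 11.77, 11.84 and 11.83. In all, 11 of 39 members stayed within 0.1 of the control on every array by the brightest probe set, a size below the technical SD at each time. The share of all genes that did so was not counted, so this is not a trait of the members. Among these 11 are Kif20b and Cenpf, which were lower by their next probe sets.

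**Figure D3:**
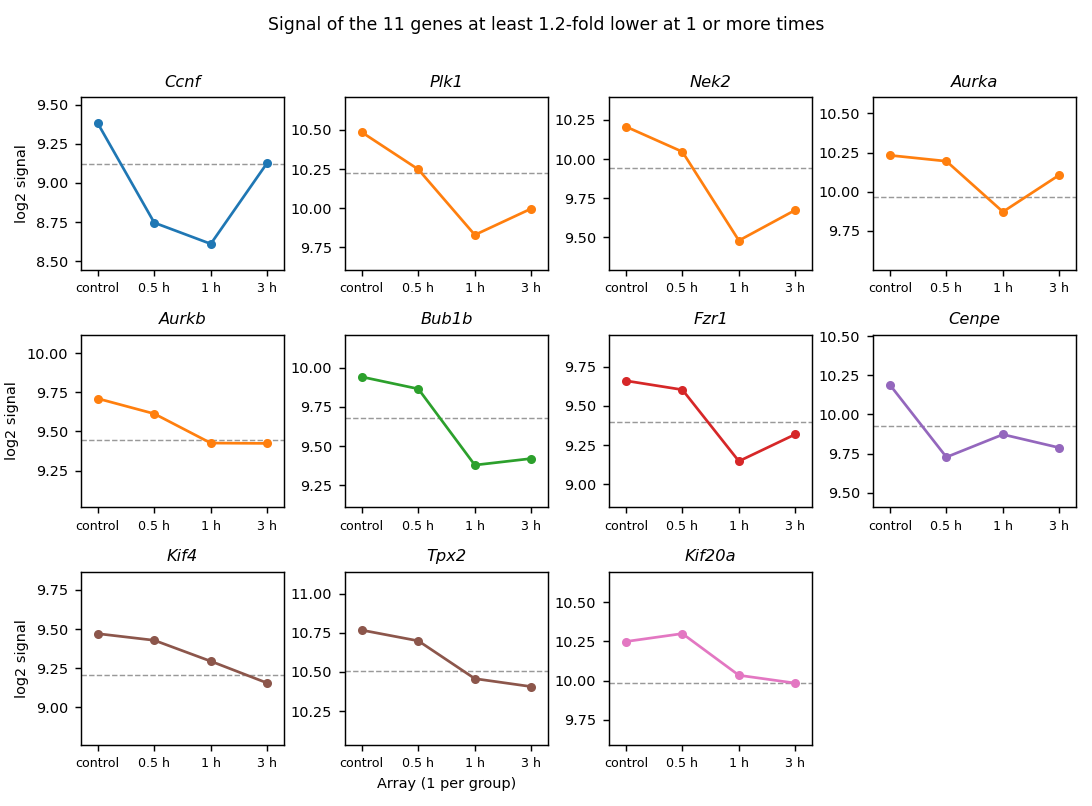
Log2 signal on each of the 4 arrays (1 per group) for the 11 genes at least 1.2-fold lower at 1 or more times, with all axes spanning the same range; the dashed line is 1.2-fold below the control. Ccnf is lowest at 1 h and returns towards the control, Plk1, Nek2, Bub1b and Fzr1 drop between 0.5 h and 1 h, and Kif4, Tpx2 and Kif20a are lowest at 3 h.

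The array with the lowest value differed between members by the brightest probe set. Among the 11 genes that fell, it was that of 0.5 h for 1, Cenpe. It was that of 1 h for 6, Ccnf, Plk1, Nek2, Aurka, Bub1b and Fzr1, and that of 3 h for 4, Aurkb, Kif4, Tpx2 and Kif20a. From 1 h to 3 h Bub1b, Aurkb, Tpx2 and Kif20a moved by 0.04, −0.002, −0.05 and −0.05, less than the technical spread of the ratios. By the next probe set above the floor, Ccnf was lowest at 0.5 h, Aurkb, Cenpe and Tpx2 at 1 h, and Bub1b at 3 h. Only Nek2 was lowest at the same time by both. Over all 39 members the lowest value was on the control array for 1 gene, at 0.5 h for 3, at 1 h for 15 and at 3 h for 20. Among all genes with 4 distinct values these shares were 31.3%, 19.4%, 23.7% and 25.6%. The highest value was on the control array for 17 of 39 (43.6%), against 25.4% of all genes. It was on the 0.5 h array for 16 (41%), against 19.7% of genes with 4 distinct values. For 21 of 39 (53.8%) both the control and the 0.5 h arrays lay above both later arrays, an order chosen after the values were seen and held by 21.2% of all genes.

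The step from 0.5 h to 1 h, which does not use the control array, had a median of −0.11 over the members and 0.01 over all genes. Of the 39, 34 were below 0, against 46.4% of all genes. By 1.2-fold 6 fell, against 4.43% of all genes. These were Nek2 at −0.57, Bub1b at −0.49, Fzr1 at −0.46, Plk1 at −0.42, Aurka at −0.32 and Kif20a at −0.27. From 1 h to 3 h the median was −0.01 for the members and for all genes alike, and for the members its sign turned under 3 of the alternative settings. In that step 0 members fell, against 4.25% of all genes, and 1 rose, Ccnf by 0.52, against 3.61% of all genes.

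Probe sets of the same gene did not all give the same size. For 25 members 2 or more probe sets lay above the floor on all arrays. The SD of the difference in ratio between the 2 brightest, again divided by the square root of 2, was 0.145, 0.151 and 0.149 at 0.5, 1 and 3 h over these 25 genes. The less bright of the 2 had a median of −0.23 at 1 h and −0.15 at 3 h, and the brighter −0.09 and −0.13. Of 6 members that fell at 1 h and had 2 probe sets, 4 fell by the other as well, and Aurkb and Cenpe did not. Conversely, Cdc20, Cenpf, Kif2c, Hmmr, Kif20b, Kif23 and Racgap1 did not pass the rule by the brightest probe set but were at least 1.2-fold lower at 1 h by the next.

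Hmmr, which encodes a spindle protein that also binds hyaluronan, shows the spread. Its brightest probe set gave 9.84, 9.90, 9.77 and 9.71, the next gave 9.62, 9.52, 9.20 and 9.12, and the one after gave 9.40, 9.38, 9.01 and 8.93. The brightest did not pass the rule, while the next 2 had ratios of −0.42 and −0.39 at 1 h and of −0.50 and −0.46 at 3 h. The dimmest of the 4 above the floor had ratios of −0.28 and −0.26, near the edge of the rule. Kif23 was at −0.03 and −0.10 by its brightest probe set and at −0.42 and −0.58 by the next, at 1 h and 3 h. Cdc20 had a ratio of −0.34 at 1 h by a probe set with signals of 11.26, 11.29, 10.92 and 11.06. Over all 75 member probe sets above the floor, 48, 58 and 66 had ratios below 0 at 0.5, 1 and 3 h. At least 1.2-fold lower were 8, 24 and 20, and at least 1.2-fold higher 0, 1 and 0, the 1 being of Top2a. At 0.5 h 6 of the 25 genes were lower by the less bright probe set, against 2 by the brightest, and Nek2, Cenpa, Cenpf, Kif20b and Top2a were lower by the less bright alone. Counts by probe sets other than the brightest were not made for all genes, so those of the members have no share beside them.

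**Figure D4:**
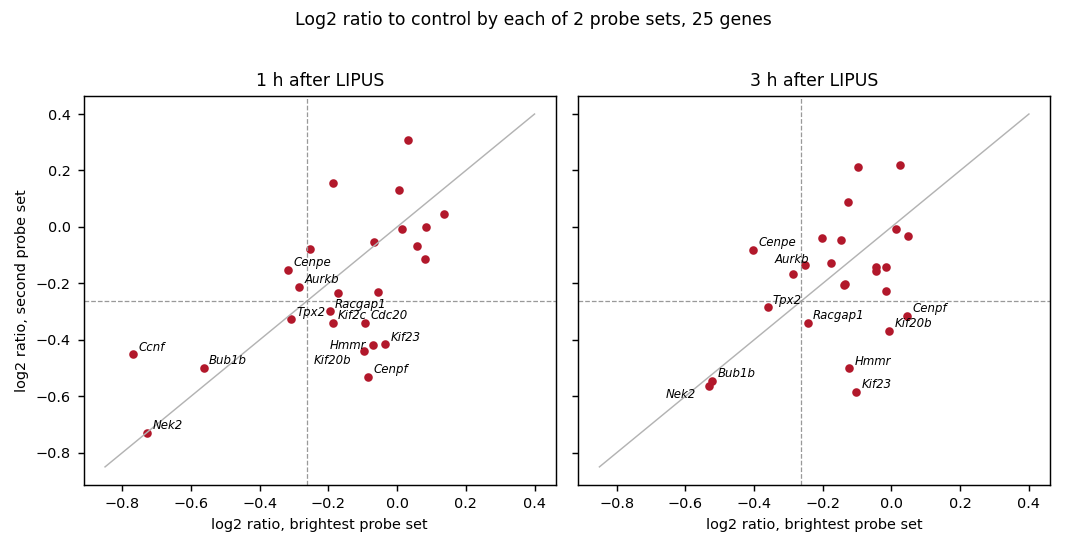
Each point is 1 of 25 genes, with the log2 ratio to control of its brightest probe set on the horizontal axis and of its next brightest on the vertical axis, at 1 h and 3 h; dashed lines mark a 1.2-fold fall and the grey line equal values. Nek2 and Bub1b lie near the line at both times, while Hmmr, Kif23 and Cenpf are lower by the dimmer probe set.

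Mitosis genes outside the list were counted the same way. In 5 further lists, 128 genes were measured, and 6, 14 and 7 of them fell at 0.5, 1 and 3 h while 3, 6 and 4 rose, with medians of 0.03, −0.02 and −0.03. The shares that fell were 4.69%, 10.9% and 5.47%, so that at 3 h the share was near the 5.37% of all genes. Other mitotic kinesin, spindle and cytokinesis genes had a median of −0.18 at 1 h, with 5 of 25 lower and 0 higher, and of −0.08 at 3 h, with 3 lower. At 1 h 21 of these 25 (84%) lay below 0, against 71.8% of the members, and that median was also below the members' −0.10. Of these Ckap5, which encodes a microtubule polymerase, fell at both times, to −0.42 and −0.30. Genes of other kinetochore and centromere proteins had medians of 0.06, −0.01 and −0.09 over 38 genes. Ska3, of the complex that holds kinetochores on microtubules, was at −0.44 and −0.29 at 1 h and 3 h, and Cenpw, a centromere protein gene, was higher at all 3 times, at 0.34, 0.37 and 0.31.

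Subunit genes of the APC/C and its close regulators had medians of 0.09, 0.07 and 0.06 over 16 genes, and condensin and cohesin genes had medians of 0.01, 0.01 and 0.00 over 19 genes. Among 30 regulators of G2/M entry and transcription, 6, 5 and 1 fell and 2, 3 and 2 rose. Mybl2, which encodes the B-MYB factor of mitotic gene transcription, fell at all 3 times, to −0.27, −0.28 and −0.41. Haspin, a histone kinase gene, was at −0.48, −0.51 and −0.22, E2f7, a repressor gene, at −0.28, −0.33 and −0.17, and Cdca2, which encodes a phosphatase-targeting protein of chromosomes, at −0.34, −0.30 and 0.08. Gadd45a, a stress-induced gene linked to G2 arrest, rose at 0.5 h and 1 h, to 0.29 and 0.38. Haspin, E2f7 and Cdca2 were thus lower at 0.5 h and 1 h and did not pass the rule at 3 h, as Ccnf did.

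Genes of G1/S and DNA replication, measured for 55, had medians of −0.02, 0.02 and −0.04. Of these 0, 2 and 3 fell and 2, 4 and 0 rose. E2f1, the gene of the S-phase transcription factor, fell at 1 h and 3 h, to −0.36 and −0.27, whereas Orc6 and Rpa3, which encode replication proteins, rose at 0.5 h and 1 h. With 1 array per group, the difference between the lists was not tested.

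**Figure D5:**
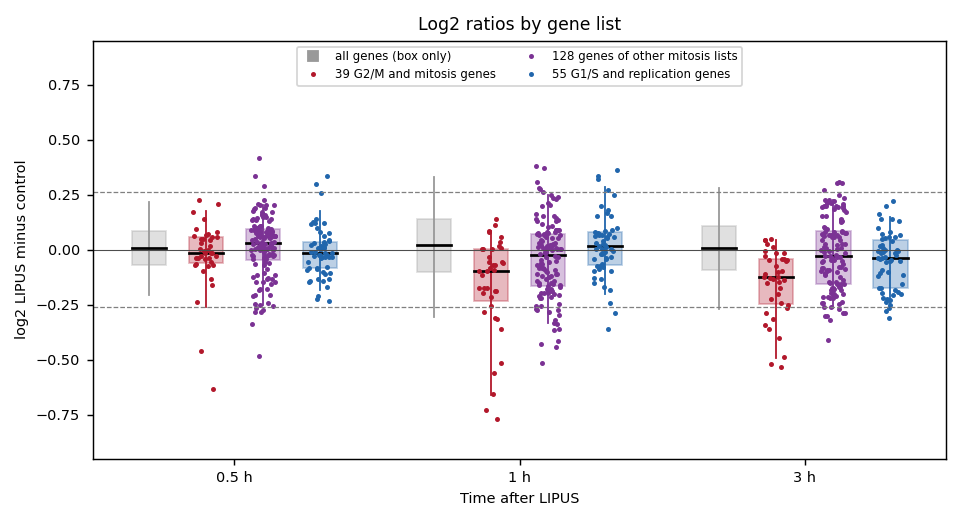
Log2 ratios to the control array at each time for all genes (box only), the 39 members, 128 other mitosis genes and 55 G1/S genes; boxes span the quartiles, black lines are medians, thin lines run from the 5th to the 95th percentile, points are genes, and dashed lines mark 1.2-fold in each direction. The members' box shifts down at 1 h and 3 h, with medians of −0.10 and −0.12, while the other lists' medians stay within 0.04 of 0.

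Measures of the labelling moved between the same arrays. Bacterial poly-A control probe sets, of which there are 24, had median ratios of −0.05, 0.29 and 0.39 at 0.5, 1 and 3 h, with 24 of 24 above the control on the last 2 arrays. The 5′ probe set less the 3′ probe set, set against the same difference on the control array, gave −0.06, −0.16 and −0.16 for Gapdh and −0.03, −0.13 and −0.09 for Actb. It gave −0.09, −0.23 and −0.22 for Pcx, and −0.41, −0.30 and −0.14 for Tfrc, which was farthest from the control at 0.5 h. The 3 probe sets of 18S ribosomal RNA had medians of 0.96, 1.91 and 1.79, the largest of these shifts. Hybridisation controls had medians of −0.11, 0.08 and 0.02. The part of these shifts in the members' ratios was not tested. Fabp4, a gene of fat cells, was higher at all 3 times, at 0.32, 0.30 and 0.33, while Adipoq lay under the floor. Vcam1, a stromal marker, was higher at 1 h and 3 h, at 0.33 and 0.36.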

How the data were processed

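Total RNA with an integrity number above 9.5 was labelled from 500 ng with a 3′ kit and hybridised to Affymetrix arrays, per the labels' protocols. The values deposited by the authors, 1 for each probe set on each array, were taken to be log2 from their range of 1.53 to 14.5. The summary and scaling methods are not given in the sources used here. The number of arrays, 1 per group, limits the precision.

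Of 45101 probe sets, 64 were controls. The platform annotation gave 34945 of the others 1 symbol, 932 several, and 9160 none or no entry. Symbols were updated through the Entrez number for 34741. Each gene took the probe set with the highest mean over the 4 arrays. Values under the floor were raised to it, and genes under it on both arrays of a comparison were left out. Ratios were counted past 1.2-fold. The size rule was checked on simulated data, with less noise than the spread between probe sets and with changes well past the rule. That check does not cover falls near the rule.

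The members and lists were chosen with earlier results of these data known. Members were named by a rule: every array's value for each member past 1.2-fold and for the lowest and highest of each role group, and genes of other lists when past 1.2-fold in 1 direction at 2 or more times. Hmmr, Cdc20 and other genes named for their probe sets, and those given as close to the control, were chosen after their values were seen. Poly-A and other controls were matched by probe set name.

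Promoters came from RefSeq, taking the first listed where a gene had several. Alternatives covered the floor, scaling, probe set, fold and reference array. Python 3.11.15, numpy 2.4.6, pandas 2.3.3, R 4.3.3 and limma 3.58.1 (quantile and loess scaling only) were used.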

Additional observations from a re-analysis of the deposited data

How the results depend on the processing

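With the mean of the other 3 arrays as reference, which takes the control out of its sole role, 1 member fell at 0.5 h and 1 at 3 h, and the 0.5 h median was 0.091. The 1 h count was then 6 of 39. Under 1.1-fold 4, 17 and 17 members fell at 0.5, 1 and 3 h, and 4, 1 and 0 rose. By that rule 12%, 20% and 17.9% of all genes fell, so the 4 of 39 members at 0.5 h did not stand out. Under 1.5-fold 1, 3 and 0 members fell, and under 2-fold 0, 0 and 0. The 1 h to 3 h median turned to 0.040 with median centring, 0.00795 with cyclic loess and 0.014 with the mean over all probe sets, so that step has no settled direction. Under the alternative floors, scalings and probe sets the counts at 1 h and 3 h stayed within 1.5 times of 9. Bub1b, at 1 h and 3 h, Ccnf at 0.5 h and 1 h, and Nek2, Plk1 and Fzr1 at 1 h kept a 1.2-fold fall under all 10 other settings of floor, scaling, probe set and reference. These genes lay above every floor used, so the floor settings could not change their ratios. Plk1 and Fzr1 had 1 probe set each, so the probe set settings could not change theirs either. With the mean over all probe sets, Aurka at 1 h (−0.18), Aurkb at 1 h and 3 h (−0.25 and −0.23), Cenpe at 1 h and 3 h (−0.23 and −0.24) and Tpx2 at 3 h (−0.24) were short of the rule. Kif2c at 1 h (−0.29), Cenpf at 1 h (−0.27) and Racgap1 at 3 h (−0.29) then passed it. With median centring, Ccna2 (−0.31) and Kif20a (−0.28) also passed the rule at 1 h. Ccna2 did so with quantile normalization (−0.28) and cyclic loess (−0.29) as well. No paired analysis was possible because each group had 1 array. Values just above the floor have little signal over background, and the lowest member value was log2 7.69, of Cdc25c.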
